A study of Mus musculus with 18 samples.

Results

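Messenger RNA of 6 genes was followed through 18 libraries of newborn mouse forebrain: *Sumo2* and *Sumo3*, the thymosins *Tmsb10* and *Tmsb4x*, *Ppp1r14b* and *Pdap1*. *Sumo2*, *Tmsb10*, *Ppp1r14b* and *Pdap1* were chosen by their Rnf2 cKO fold changes, as leading rises among abundant coding genes, and *Sumo3* and *Tmsb4x* were added as their relatives, to see how reads were shared between similar genes. A member's entry was the one carrying its name, alone or joined to a neighbor's name, and all 6 were found in each of the 4 tables, among 23138 named entries for Kdm2b hippocampi, 23398 for neurospheres and 54429 each for Kdm2b cortices and Rnf2 hippocampi. The values of the Rnf2 comparison chose the genes, so they are described below without a test, and tests are given only for the Kdm2b comparisons.

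The study deleted the exon encoding the CxxC zinc finger of *Kdm2b*, or floxed *Rnf2*, with *Emx1*-Cre, which acts in progenitors of the dorsal telencephalon and leaves interneurons, microglia and vessels unrecombined. At postnatal day 0, hippocampi of 3 control (Kdm2bfl/+ or Kdm2bfl/fl) and 3 cKO (Kdm2bEmx1-delta-CxxC) samples, cortices of 2 and 2 of these genotypes, and hippocampi of 2 control (Rnf2fl/+ or Rnf2fl/fl) and 2 cKO (Rnf2Emx1-cKO) samples were profiled by RNA-seq. Neurospheres, floating cultures of hippocampal progenitors grown with FGF2 and EGF, came from 2 control and 2 Kdm2bEmx1-delta-CxxC samples of the same age. They were profiled after 3 generations in culture. The labels do not tell controls with 1 floxed allele from those with 2, nor do they say whether the samples of a group are separate animals, so p-values measure the spread between these samples. Levels are given in FPKM, a count of fragments scaled to transcript length and library size, so that genes can be compared per length.

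Both SUMO genes encode small ubiquitin-like modifiers that are joined to lysines of other proteins by an activating enzyme, a conjugating enzyme and ligases and are removed by SENP proteases; the mature proteins of *Sumo2* and *Sumo3* are nearly identical. *Tmsb10* and *Tmsb4x* encode beta-thymosins, very short proteins that bind actin monomers and are abundant in young neurons. *Ppp1r14b* encodes an inhibitor of protein phosphatase PP1, and *Pdap1* a phosphoprotein first described as a partner of PDGFA. Rnf2 is the ubiquitin ligase of Polycomb repressive complex PRC1, which modifies histone H2A, and the CxxC domain of Kdm2b brings a variant PRC1 to unmethylated CG-rich DNA.

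How far a read can tell the relatives apart is visible in their coding sequences. In the GENCODE vM21 annotation of GRCm38, *Sumo2* lies on the minus strand at chr11:115523102-115536276 and *Sumo3* on the plus strand at chr10:77606097-77618331. Their coding sequences of 288 and 333 bases were identical at 233 of 285 aligned bases (81.8%), and the longest identical run was 17 bases. Their first 240 coding bases are shown because this distance bears on whether a read of one could be given to the other, and capitals mark bases that differ or are unaligned between both.
Sumo2: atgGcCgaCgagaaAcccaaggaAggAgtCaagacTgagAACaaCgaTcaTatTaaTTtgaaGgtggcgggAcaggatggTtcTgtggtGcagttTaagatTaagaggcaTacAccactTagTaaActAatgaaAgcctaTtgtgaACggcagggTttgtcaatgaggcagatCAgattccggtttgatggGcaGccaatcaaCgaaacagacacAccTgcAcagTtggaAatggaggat
Sumo3: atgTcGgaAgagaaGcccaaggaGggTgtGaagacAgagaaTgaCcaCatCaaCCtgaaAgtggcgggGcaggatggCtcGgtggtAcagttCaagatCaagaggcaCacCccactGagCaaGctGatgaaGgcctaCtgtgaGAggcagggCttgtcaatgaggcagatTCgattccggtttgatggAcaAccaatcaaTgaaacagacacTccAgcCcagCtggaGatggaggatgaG

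*Tmsb10*, on the minus strand at chr6:72957347-72958748, and *Tmsb4x*, on the minus strand at chrX:167207093-167209315, have coding sequences of 135 bases each. These were identical at 98 of 133 aligned bases (73.7%), with a longest identical run of 10 bases, and capitals again mark differences. *Gm9844* is an annotated gene at chr7:24862213-24862697. The part of its transcript that matches the *Tmsb10* coding sequence is printed. It differs at the capitals of its line and equals that sequence at 133 of 135 bases, so it is far closer to *Tmsb10* than *Tmsb4x* is.
Tmsb10: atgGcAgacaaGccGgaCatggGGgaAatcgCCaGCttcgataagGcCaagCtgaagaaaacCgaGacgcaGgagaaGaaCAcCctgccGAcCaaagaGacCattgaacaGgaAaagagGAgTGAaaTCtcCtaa
Tmsb4x: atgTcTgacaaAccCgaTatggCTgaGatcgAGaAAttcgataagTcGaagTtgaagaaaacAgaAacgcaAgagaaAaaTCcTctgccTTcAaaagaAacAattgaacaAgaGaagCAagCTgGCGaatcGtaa
Gm9844: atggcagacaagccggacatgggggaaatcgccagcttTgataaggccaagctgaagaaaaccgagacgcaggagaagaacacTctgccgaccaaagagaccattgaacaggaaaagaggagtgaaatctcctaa

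The other pair of members has no relative in the set. *Ppp1r14b* lies on the plus strand at chr19:6974968-6977324 and *Pdap1* on the minus strand at chr5:145128769-145140238. *Pdap1* shares bases with the neighboring actin-assembly gene *Arpc1b*, and *Sumo3* with the gene model *Gm49325*, whose FPKM was at most 0.0919 in the cortical and Rnf2 libraries.

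Several libraries stood apart before any comparison of genotypes. In the first neurosphere control 29.3% of the FPKM fell in entries that name no gene, against 0.876% to 1.95% in the other neurosphere libraries. The second cortical control was low in *Sumo2* and the second cKO neurosphere library was high in *Tmsb10*, and results are given with and without both. *Xist*, which females transcribe, was at 154 FPKM in hippocampal cKO 1 and under 0.1 in the other 5 Kdm2b hippocampal libraries. It was at 0.361 in neurosphere cKO 1 and 0.0177 in cortical control 1, and at 132 to 189 in the other cortical, 140 to 175 in the other neurosphere and 71.0 to 122 in all 4 Rnf2 libraries. Marker sums fitted the labels, with hippocampal markers at 71.9 to 103 FPKM in Kdm2b and 42.3 to 61.5 in Rnf2 hippocampi and 4.73 to 7.79 in cortices, neocortical markers at 138 to 163 in cortices, and neurospheres high in progenitor markers (4171 to 7381). *Kdm2b* was 29.4 ± 2.15 FPKM in control and 27.2 ± 0.992 in cKO hippocampi (SD, n = 3 each), and *Rnf2* was 31.5 ± 1.02 and 28.1 ± 0.494 (SD, n = 2 each), and such gene-level values, which include undeleted exons, do not check the labels. Reads could be recovered for cortices (18.5 to 21.9 M per library) and Rnf2 hippocampi (14.7 to 16.3 M), and the depth of the other tables is unknown.

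In Rnf2 cKO hippocampi the SUMO pair parted. *Sumo2* read 13.2 and 12.7 FPKM in controls and 45.5 and 41.1 in cKO libraries, a log2 difference of 1.67. Both cKO libraries were far above both controls. *Sumo3* read 35.2 and 29.4 in controls and 30.0 and 31.7 in cKO libraries, a log2 difference of -0.057 that became 0.068 without control 1. Its groups overlapped.

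The thymosins behaved likewise. *Tmsb10* read 136 and 127 FPKM in controls and 297 and 286 in cKO libraries, a log2 difference of 1.14. *Tmsb4x*, the more abundant of both, read 1373 and 1014 in controls and 997 and 1088 in cKO libraries, a log2 difference of -0.18 that became 0.038 without control 1. *Tmsb10* was clear of its controls in both cKO libraries, whereas the *Tmsb4x* groups overlapped.

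*Ppp1r14b*, the PP1 inhibitor, read 94.0 and 88.6 FPKM in controls and 171 and 169 in cKO libraries, a log2 difference of 0.89. *Pdap1* read 8.82 and 9.30 in controls and 17.7 and 16.5 in cKO libraries, a log2 difference of 0.84. Replicates of both genes lay close together, with a replicate SD of 0.043 and 0.059 on the log2 scale, and *Pdap1*, at low levels, was compressed by the added 1, since a pseudocount of 0.1 gave 0.91. In this comparison 2.86% of the 15764 genes tested were called higher (log2 fold change above 0.4 and unadjusted p under 0.05) and 19.5% had both cKO libraries above both controls. Either way 4.71% were called, and 0 genes (0%) passed an adjusted p of 0.05 in limma, 4 did in limma-voom on the recovered reads, and 1121 (7.11%) had an unadjusted p under 0.05 at any fold in limma. Since these values selected the genes, nothing is read from the position of the members against that background.

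**Figure D1:**
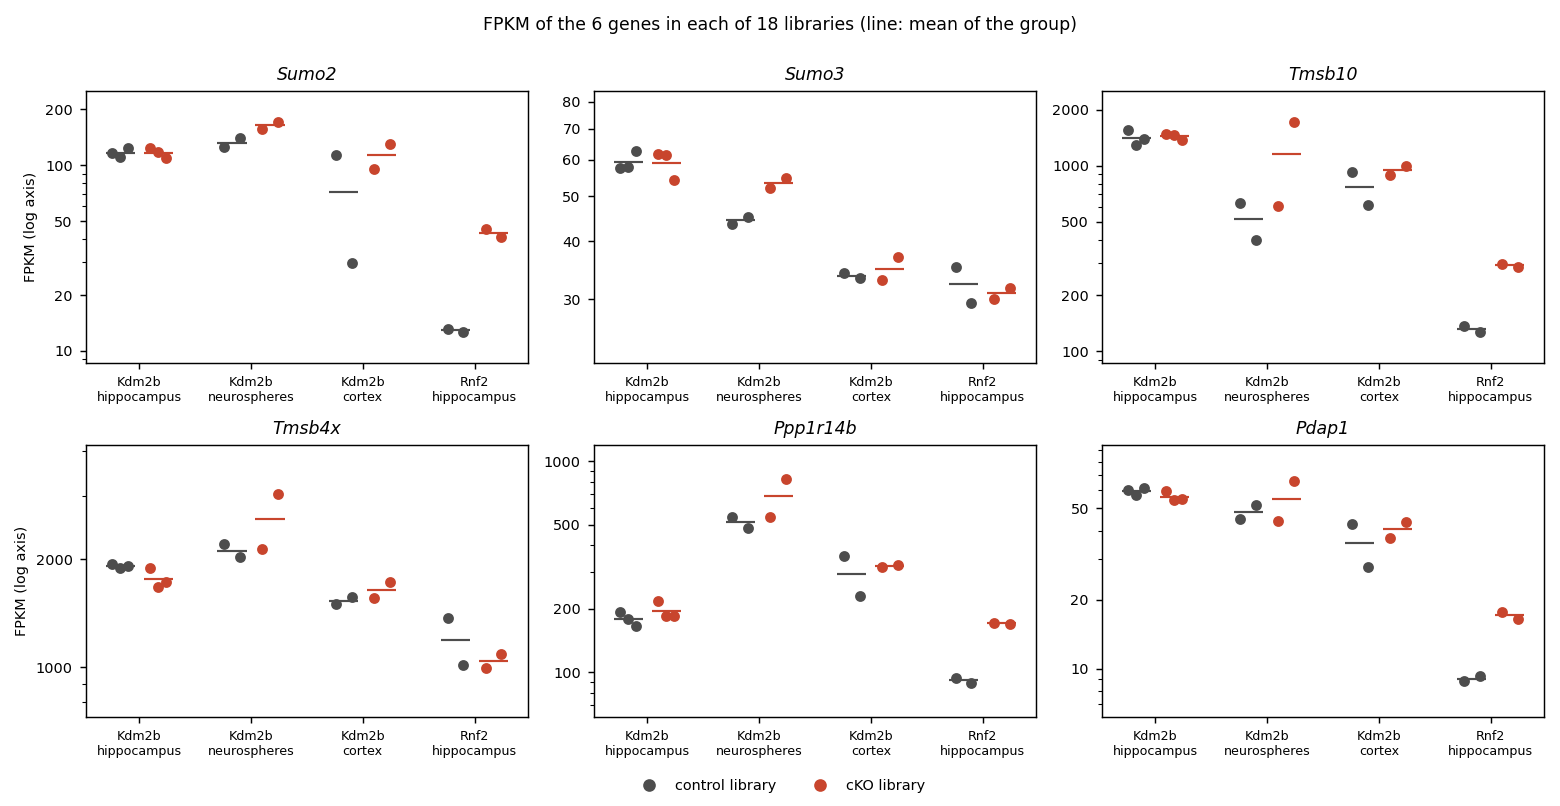
FPKM of each gene (log axis) in each of the 18 libraries, by table, with controls in gray, cKO libraries in red and a line at each group mean. In Rnf2 hippocampi *Sumo2*, *Tmsb10*, *Ppp1r14b* and *Pdap1* have cKO points clear above the controls, while *Sumo3* (29.4 to 35.2) and *Tmsb4x* (997 to 1373) overlap.

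How the members were picked shows in the ranking. Among 451 called rises, *Sumo2* stood 13th, *Tmsb10* 51st, *Ppp1r14b* 94th and *Pdap1* 103rd by log2 fold change. Among the 127 protein-coding ones whose mean reached 10 FPKM they stood 1st, 2nd, 6th and 10th. *Sumo2* was followed in the full ranking by *Mir6948* (1.63) and *Gm25321* (1.61) and preceded by *Mir298* (1.67) and *Gm15949* (1.67), all with a mean under 3 FPKM. Next to *Tmsb10* (1.14) were *Gm17828* (1.15) and *Gm23316* (1.14) above and *Gm43962* (1.13) and *Gm15563* (1.13) below. *Ppp1r14b* stood between *Gm35558* (0.90) and *Gm10060* (0.90), and *Gm6851* (0.89) and *Gm12112* (0.89). Around *Pdap1* were *Edf1*, a transcriptional coactivator (0.87), *Epop*, a Polycomb-associated protein (0.86), *Gm13205* (0.84) and *Rpl28-ps1* (0.84). Among the abundant coding genes the neighbors of *Tmsb10* were the ribosomal protein gene *Rpl23a* (1.09) and its own copy *Gm9844* (1.09), those of *Ppp1r14b* were *Gm6793* (1.00) and the ATP synthase subunit gene *Atp5k* (0.87), and those just below *Pdap1* were *Vstm2l* (0.84) and *Gtf2f1* (0.81).

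Reads were also counted on near-identical copies of *Sumo2* elsewhere in the genome. Annotated transcripts matching a member at 90% identity or more over at least 150 bases outside its own locus were collected, a search chosen after the data were seen, and 13 were found for *Sumo2*, 2 for *Ppp1r14b*, 1 each for *Tmsb10* and *Sumo3*, and none for *Tmsb4x* and *Pdap1*. The closest is *Gm10241*, a processed pseudogene at chr16:20176727-20177012 whose 286 bases all equal the first 286 of the *Sumo2* coding sequence, so that it begins with the 240 bases printed above. In Rnf2 hippocampi *Gm10241* read 133 and 130 FPKM in controls and 144 and 124 in cKO libraries, a log2 difference of 0.021 with overlapping groups. The copy thus lacked the difference of the gene in the same libraries.

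Read counts show the size of this. Rnf2 controls had 342 and 343 reads on *Sumo2* against 609 and 615 on the 13 copies, so 36.0% (95% exact binomial interval 32.9% to 39.1%) and 35.8% (32.8% to 38.9%) were on *Sumo2*. The cKO libraries had 1305 and 1154 reads on *Sumo2* against 721 and 610 on copies, or 64.4% (62.3% to 66.5%) and 65.4% (63.1% to 67.6%). These intervals cover counting error only. As CPM (reads scaled to a common library total), *Sumo2* alone gave a log2 difference of 1.74, and *Sumo2* with its copies gave 0.89, from 63.6 and 61.6 in controls to 123 and 109 in cKO libraries. The sum was therefore also higher in both cKO libraries, by less on this scale. How reads matching several places were assigned is not given in the sources used here, and to which locus these reads belong was not tested, so the difference of 1.67 is that of the *Sumo2* entry.

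**Figure D2:**
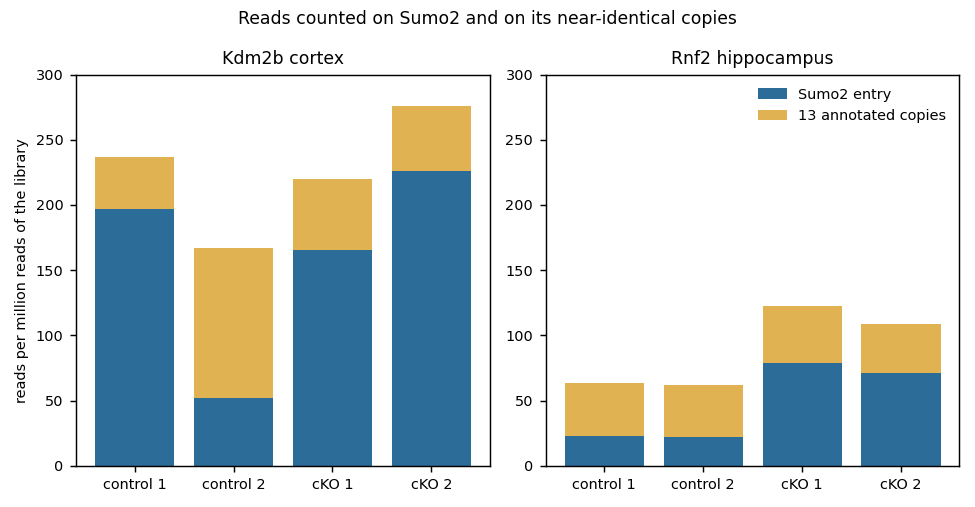
CPM (reads scaled to a common library total, linear axis from 0) on the *Sumo2* entry (blue) and on its 13 annotated copies (yellow) in each cortical and Rnf2 library. In Rnf2 hippocampi the blue part is at most 36.0% of the bar in controls and at least 64.4% in cKO libraries, and in cortical control 2 it is 31.0% of the bar against 75.4% to 83.3% in the other 3 cortical libraries.

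The other members with copies (*Sumo3*, *Tmsb10* and *Ppp1r14b*) kept nearly all reads on their own entries, from 96.4% (*Ppp1r14b*, Rnf2 control 2) to 100% (*Sumo3*). For *Tmsb4x* and *Pdap1*, without copies, the share was 100% by construction and says nothing of shared reads. Genes overlapping a member's locus, as *Arpc1b* does that of *Pdap1*, were not counted as copies. *Gm9844* read 8.68 and 5.43 FPKM in Rnf2 controls and 16.7 and 14.9 in cKO libraries. It was higher in both cKO libraries, as *Tmsb10* was, and adding its reads left the log2 difference of *Tmsb10* at 1.14. *Gm7332*, the closer copy of *Ppp1r14b*, read 5.74 and 6.51 in controls and 5.87 and 6.67 in cKO libraries, with a log2 difference of 0.028. With both copies added *Ppp1r14b* went from 0.90 to 0.88 in CPM.

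Calls in both directions were more frequent among short genes in the Rnf2 table. Of protein-coding genes tested, 8.75% of those under 1000 bases in the deposited lengths were called higher, 5.76% of those of 1000 to under 2000 bases, 2.60% of those of 2000 to under 4000 bases and 0.665% of those of 4000 bases or longer. Called lower were 4.38%, 1.40%, 1.37% and 0.936% of the same classes. *Ppp1r14b* (919 bases), *Tmsb10* (1276 bases), *Tmsb4x* (1371 bases) and *Sumo2* (1736 bases) were among the shortest 9.69% of them, *Sumo3* (3660 bases) was among the shortest 38.2%, and *Pdap1* (5245 bases) was longer than most. The part of length in the members' differences was not tested. Of other genes in these libraries, the 13 mitochondrially encoded ones had a median log2 difference of -0.37, meningeal markers -0.69 (4 of 6 called lower, summed FPKM 37.5 to 37.7 in controls and 17.1 to 25.7 in cKO libraries) and choroid plexus markers 0.58 (0 of 4 called, summed FPKM 12.6 to 49.97 and 7.53 to 240), and no marker of either list was at 0 in every library. In whole tissue a change in the share of a cell type and a change of RNA per cell cannot be told apart.

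In Kdm2b cKO hippocampi, the set with 3 libraries per group, no member was called. *Sumo2* read 116, 111 and 123 FPKM in controls and 123, 117 and 110 in cKO libraries, in an entry shared with *Mir684-1*. *Sumo3* read 57.5, 57.9 and 62.6 in controls and 61.8, 61.3 and 54.3 in cKO libraries. Both SUMO genes had overlapping groups, with log2 fold changes of -0.00014 ± 0.059 and -0.0061 ± 0.062 (SE) and limma adjusted p of 0.999 and 0.968. These are the narrowest SE for the pair in the 3 Kdm2b tables.

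*Tmsb10* read 1551, 1293 and 1400 FPKM in controls and 1484, 1463 and 1372 in cKO libraries, with a log2 fold change of 0.029 ± 0.083 and an adjusted p of 0.883 in limma. *Tmsb4x* read 1937, 1895 and 1915 in controls and 1894, 1673 and 1724 in cKO libraries, with a log2 fold change of -0.12 ± 0.075 and an adjusted p of 0.384. All 3 cKO values of *Tmsb4x* lay under the lowest control, the nearest at 1894 against 1895, as was the case for 14.3% of all genes tested. *Tmsb4x* is X-linked, and its highest cKO value was that of the library with *Xist*. The part of sex in it was not tested.

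*Ppp1r14b* read 193, 178 and 166 FPKM in controls and 218, 184 and 185 in cKO libraries, with a log2 fold change of 0.13 ± 0.079 and an adjusted p of 0.388 in limma. *Pdap1* read 60.1, 56.9 and 61.6 in controls and 59.4, 54.2 and 54.8 in cKO libraries, with a log2 fold change of -0.085 ± 0.054 and an adjusted p of 0.395. Both overlapped. Of all genes tested 6.14% were called higher or lower, limma called 0 of the 6 members, and 0 of 6 had an unadjusted p under 0.05 at any fold, where 23% of all genes did. The SE of the 6 members ran from 0.054 to 0.083 on the log2 scale.

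In neurospheres both SUMO genes were higher in cKO libraries, together and by little. *Sumo2* read 125 and 139 FPKM in controls and 157 and 170 in cKO libraries. *Sumo3* read 43.5 and 45.2 in controls and 52.0 and 54.6 in cKO libraries. Both genes had each cKO library above each control, as did 32.1% of all genes tested in this table. The log2 fold changes were 0.31 ± 0.10 (limma unadjusted p = 0.0242, adjusted p = 0.0814) and 0.26 ± 0.079 (0.0178 and 0.0665), so both passed the unadjusted p but not the fold threshold.

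*Tmsb10* read 632 and 398 FPKM in control neurospheres and 608 and 1715 in cKO libraries, a log2 fold change of 1.02 ± 0.50 with an adjusted p of 0.189 in limma. Library cKO 2 alone was high, and cKO 1 lay between the controls. *Tmsb4x* read 2204 and 2024 in controls and 2133 and 3029 in cKO libraries (0.27 ± 0.25, adjusted p = 0.476). *Ppp1r14b* read 544 and 484 in controls and 546 and 823 in cKO libraries (0.38 ± 0.22, adjusted p = 0.247). The groups of *Ppp1r14b* did not overlap, but cKO 1 was barely above control 1. *Pdap1*, in an entry shared with *Ptcd1*, read 44.8 and 51.6 in controls and 43.9 and 65.9 in cKO libraries (0.16 ± 0.19, adjusted p = 0.586).

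Against the mean of the other 3 neurosphere libraries, cKO 2 was higher by 1.68 on the log2 scale in *Tmsb10*, the 15th highest of 12227 genes, by 0.65 in *Ppp1r14b*, by 0.52 in *Tmsb4x*, by 0.49 in *Pdap1*, by 0.28 in *Sumo2* and by 0.22 in *Sumo3*, with a median of 0.021 over all genes. Limma called 0 of 6 members where 24.6% of all genes were called, and 2 had an unadjusted p under 0.05 at any fold, as did 38.2% of all genes. Without cKO 1, where cKO 2 alone stands for its group and is assumed to vary like the controls, the count was 4 (*Tmsb10* 1.77, *Ppp1r14b* 0.68, *Tmsb4x* 0.52 and *Pdap1* 0.45), and without cKO 2 *Pdap1* turned to -0.13 while *Tmsb10* was 0.28. With libraries scaled to the same FPKM total, which moves the first control most, *Tmsb10* was called at 1.15 (adjusted p = 0.00207). Proliferation markers were higher in cKO neurospheres (8 of 8 called, summed FPKM 234 to 241 in controls and 510 to 530 in cKO libraries), and cKO 1 was the library low in *Xist*. The parts of both in the members' values were not tested.

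**Figure D3:**
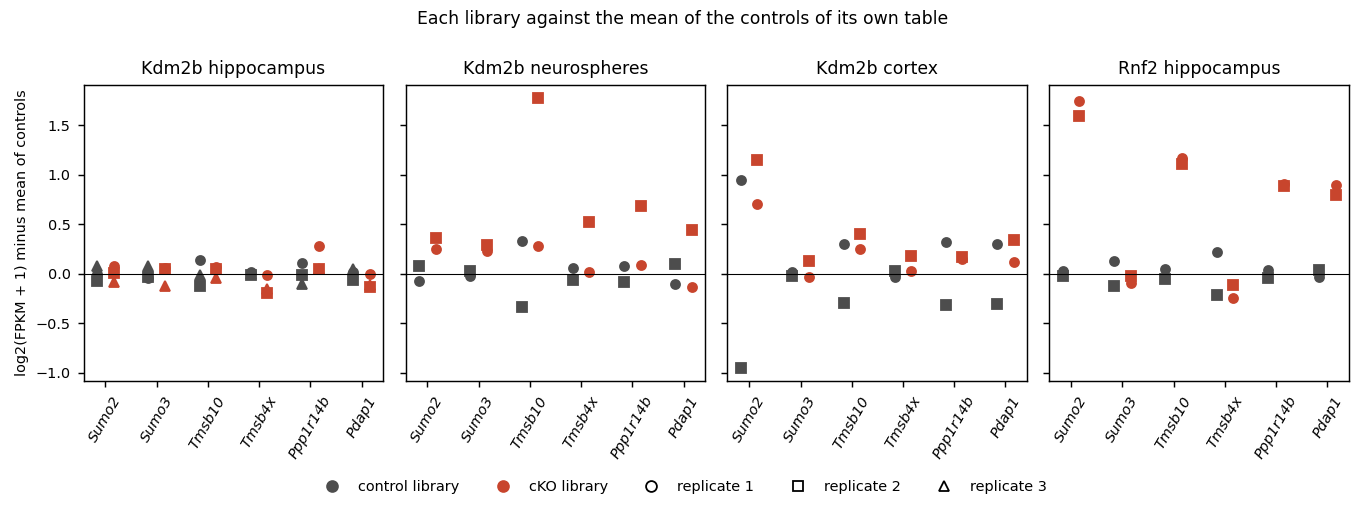
Each library's log2(FPKM + 1) minus the control mean of its own table, for the 6 genes, with shapes for replicate numbers. Points near 0 fill the Kdm2b hippocampal panel, neurosphere cKO 2 (square) is high in *Tmsb10*, cortical control 2 is low in *Sumo2*, and in the Rnf2 panel 4 genes stand at 0.84 to 1.67 on average.

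Kdm2b cortices gave no call either, and the *Sumo2* value there rested on 1 control. *Sumo2* read 114 and 29.8 FPKM in controls and 95.4 and 130 in cKO libraries, a log2 fold change of 0.92 ± 0.62 with an adjusted p of 0.601 in limma. The groups overlapped, since control 1 exceeded cKO 1. *Sumo3* read 34.1 and 33.2 in controls and 32.9 and 36.9 in cKO libraries (0.050 ± 0.087, adjusted p = 0.855). Control 2 was therefore ordinary in *Sumo3* while it was low in *Sumo2*.

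The copies ran the other way in that library. Control 2 had 1098 reads on *Sumo2* and 2448 on its copies, so that 31.0% (29.4% to 32.5%) lay on *Sumo2*, while control 1 had 4343 and 868 (83.3%, 82.3% to 84.3%), cKO 1 3252 and 1059 (75.4%, 74.1% to 76.7%) and cKO 2 4226 and 929 (82.0%, 80.9% to 83.0%). *Gm10241* read 127 and 396 FPKM in controls and 181 and 163 in cKO libraries. With the copies added, CPM were 236 and 167 in controls and 220 and 276 in cKO libraries, and the log2 difference went from 0.94 to 0.31. The sum in control 2 remained the lowest of the 4.

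*Tmsb10* read 928 and 613 FPKM in cortical controls and 895 and 999 in cKO libraries (0.33 ± 0.24, adjusted p = 0.637 in limma). *Tmsb4x* read 1499 and 1570 in controls and 1561 and 1733 in cKO libraries (0.10 ± 0.18, adjusted p = 0.864). The thymosin values overlapped for both genes, and control 2 was lowest in *Tmsb10* but not in *Tmsb4x*. *Ppp1r14b* read 356 and 229 in controls and 317 and 322 in cKO libraries (0.16 ± 0.22, adjusted p = 0.814). *Pdap1* read 42.7 and 27.7 in controls and 37.3 and 43.7 in cKO libraries (0.23 ± 0.22, adjusted p = 0.719). Control 2 was again the lowest in both genes.

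Against the mean of the other 3 cortical libraries, control 2 differed by -1.88 on the log2 scale in *Sumo2*, the 11th lowest of 15691 genes, by -0.62 in *Tmsb10*, by -0.56 in *Pdap1* and by -0.53 in *Ppp1r14b*, and by -0.056 in *Sumo3* and -0.023 in *Tmsb4x*. The 4 genes chosen for their Rnf2 rises were thus the ones low in this Kdm2b control, while their relatives were near the median of all genes (0.0080). Limma called 0 of 6 members where 7.01% of all genes were called, limma-voom called 0, 0 had an unadjusted p under 0.05 in either (12.8% of all genes did in limma), and 0 of 6 were free of overlap, against 44.8% of all genes. Without control 1, where control 2 alone stands for its group and is assumed to vary like the cKO libraries, the count was 4 (*Sumo2* 1.87, *Tmsb10* 0.62, *Pdap1* 0.53, *Ppp1r14b* 0.48), and without control 2 *Sumo2* was -0.026, *Ppp1r14b* -0.16 and *Pdap1* -0.078, while *Tmsb10* was 0.027. Control 1 was the library low in *Xist*, and meningeal markers were higher in cKO cortices (6 of 6 called, summed FPKM 1.42 to 2.25 in controls and 20.5 to 34.8 in cKO libraries, none at 0 in every library). The parts of both in these values were not tested.

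Ratios within a library set each leading gene against its relative without library scaling. *Sumo2* to *Sumo3* was 1.92 to 2.02 in all 6 Kdm2b hippocampal libraries and 2.88 to 3.11 in all 4 neurosphere libraries. In cortices it was 3.33 and 0.896 in controls and 2.90 and 3.53 in cKO libraries. In Rnf2 hippocampi it was 0.374 and 0.432 in controls and 1.51 and 1.29 in cKO libraries, so *Sumo2* was under *Sumo3* in controls and above it in cKO libraries. This crossing rests on the own entry of *Sumo2*. With the reads of copies added to both genes, per length of the gene, a measure added after the data were seen, the ratio was 1.04 and 1.21 in Rnf2 controls and 2.35 and 1.98 in cKO libraries, above 1 in all 4, and in cortices it was 3.995 and 2.89 in controls and 3.84 and 4.30 in cKO libraries. The log2 difference between groups was 0.0061 in Kdm2b hippocampi, 0.043 in neurospheres and 0.89 in cortices. Exact two-sided permutation p were 1, 0.667 and 0.667, and since the smallest these designs allow are 0.1, 0.333 and 0.333, they cannot show a difference or its absence.

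*Tmsb10* to *Tmsb4x* ranged from 0.682 to 0.875 in Kdm2b hippocampi (log2 difference 0.15, exact permutation p = 0.3). It was 0.287 and 0.197 in control neurospheres and 0.285 and 0.566 in cKO ones, and 0.619 and 0.391 in cortical controls and 0.574 and 0.577 in cKO cortices. The exact permutation p was 0.667 in neurospheres and 1 in cortices, where 2 against 2 libraries cannot go below 0.333. In Rnf2 hippocampi it was 0.0994 and 0.126 in controls and 0.298 and 0.263 in cKO libraries. *Tmsb4x* was the more abundant thymosin in each of the 18 libraries.

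**Figure D4:**
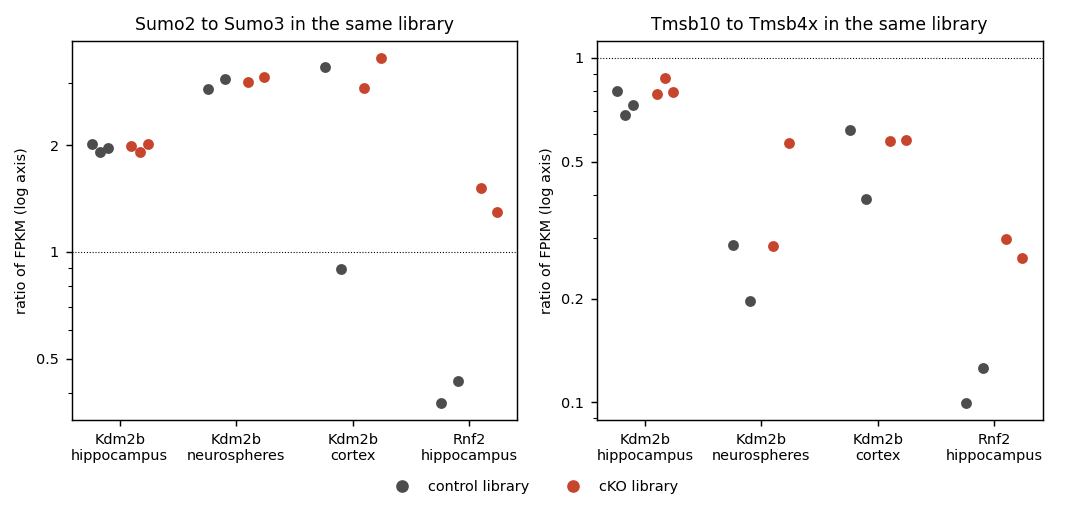
Ratio of FPKM of *Sumo2* to *Sumo3* and of *Tmsb10* to *Tmsb4x* in each library (log axes, dotted line at 1), by table and group. The SUMO ratio lies at 1.92 to 3.53 in the Kdm2b tables except for cortical control 2 (0.896), and in Rnf2 hippocampi it is at most 0.432 in controls and at least 1.29 in cKO libraries, on own entries only (with copies added, 1.04 or more in all 4).

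Levels differed between tables, which were normalized separately, so they are set side by side without a test. The pipeline of the cortical and Rnf2 values is not known, so the measure may differ too. *Sumo2* values are those of its own entry, shared with *Mir684-1* in Kdm2b hippocampi and neurospheres. In Rnf2 controls that entry held at most 36.0% of the reads on *Sumo2* and its copies. Mean control FPKM of *Sumo2* was 132 in neurospheres, 117 in Kdm2b hippocampi, 71.6 in cortices and 12.9 in Rnf2 hippocampi, and the hippocampal and cortical libraries overlapped. *Sumo3* followed another order, with 59.3 in Kdm2b hippocampi, 44.4 in neurospheres, 33.6 in cortices and 32.3 in Rnf2 hippocampi, the last pair overlapping. *Tmsb10* was at 1415 in Kdm2b hippocampi, 771 in cortices, 515 in neurospheres and 132 in Rnf2 hippocampi, with cortices and neurospheres overlapping. *Tmsb4x* went from 2114 in neurospheres through 1916 and 1535 in Kdm2b hippocampi and cortices to 1194, and *Ppp1r14b* from 514 in neurospheres through 292 in cortices and 179 in Kdm2b hippocampi to 91.3. *Pdap1* had 59.5 in Kdm2b hippocampi, 48.2 in neurospheres, 35.2 in cortices and 9.06 in Rnf2 hippocampi, and neither it, *Tmsb4x* nor *Ppp1r14b* had neighbors that overlapped. In Rnf2 cKO libraries *Sumo2* (45.5 and 41.1) was under the Kdm2b hippocampal range of 110 to 123, while *Ppp1r14b* (171 and 169) was within the Kdm2b hippocampal range of 166 to 218.

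Over all 18 libraries, as log2(FPKM + 1) minus the control mean of the own table, the members were compared in pairs. Pearson's r was 0.914 for *Sumo2* and *Pdap1*, 0.907 for *Ppp1r14b* and *Pdap1*, 0.895 for *Tmsb10* and *Ppp1r14b*, 0.829 for *Sumo2* and *Ppp1r14b*, 0.788 for *Tmsb10* and *Pdap1* and 0.656 for *Sumo2* and *Tmsb10*. It was 0.0034 for *Sumo2* and *Sumo3*, 0.379 for *Tmsb10* and *Tmsb4x* and 0.768 for *Sumo3* and *Tmsb4x*. These points share libraries and tables, and they hold the Rnf2 values by which the leading genes were chosen to rise together. Over the 14 Kdm2b libraries alone, r was 0.862 for *Tmsb10* and *Tmsb4x* and 0.332 for *Sumo2* and *Sumo3*, and 0.875 for *Tmsb10* and *Ppp1r14b*. It was 0.804 for *Sumo2* and *Pdap1*, 0.756 for *Ppp1r14b* and *Pdap1*, 0.683 for *Tmsb10* and *Pdap1*, 0.594 for *Sumo2* and *Ppp1r14b*, 0.414 for *Sumo2* and *Tmsb10* and 0.686 for *Sumo3* and *Tmsb4x*.

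Over all 18 libraries, Rnf2 included, and of the 3140 genes whose mean reached 10 FPKM in all 4 tables, the most alike to *Tmsb10* were *Hnrnpab* (0.966), *Ybx1* (0.945) and *Nudc* (0.935). *Ppp1r14b* was most like *Hnrnpab* (0.936), *Cdc37* (0.930) and *Eif3g* (0.923). *Hnrnpab* encodes an RNA-binding protein and led both lists. *Pdap1* went with *Cyth2* (0.944), *Dnajb11* (0.939) and *Aes* (0.934), and *Sumo2* with *Rpl36a* (0.898), *Rnf5* (0.891) and *Atp5o* (0.888). For *Sumo3* the most alike were *Rsl24d1* (0.942), *Itpa* (0.929) and *Rpsa* (0.921), and for *Tmsb4x* *Ssna1* (0.909), *Cdkn2d* (0.897) and *Eif3m* (0.894). The leading genes were chosen by their rise in the Rnf2 libraries included here. Nothing is therefore read from their partners or from a contrast with those of the relatives.

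The SUMO machinery around *Sumo2* and *Sumo3* was counted over 25 genes of conjugation and removal. In Rnf2 hippocampi limma called 0 of 25, 2 had an unadjusted p under 0.05 at any fold, limma-voom called 2, and the median log2 difference was -0.063 against -0.00024 over all genes tested. In neurospheres 5 were called higher and 2 lower, or 28% of the list where 24.6% of all genes were called, with a median of 0.15 against -0.011 over all genes. Proliferation markers were higher in the same libraries (8 of 8 called), and their part in this list was not tested. Of the 5 SUMO genes called higher, *Sae1* and *Uba2*, the subunits of the activating enzyme, rose by 0.65 ± 0.080 (limma adjusted p = 0.00488) and 0.52 ± 0.077 (0.00835). *Senp3*, a SUMO protease in an entry shared with *Eif4a1* and *Cd68*, rose by 0.51 ± 0.13 (0.0397). The 2 called lower are not named here, and log2 fold changes in the list ran from -0.68 to 0.65. In Kdm2b hippocampi limma called 0 of 25 (3 at an unadjusted p under 0.05 at any fold, median 0.049 against 0.0084), and in cortices 0 of 25 (1 at an unadjusted p under 0.05, 1 by limma-voom, median -0.026 against -0.0053).

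Genes of actin monomer binding and assembly, the setting of the thymosins, were tested for 25 to 27 entries per table. In Rnf2 hippocampi limma called 0 of 27 (1 at an unadjusted p under 0.05 at any fold, 0 by limma-voom, median -0.096). In Kdm2b hippocampi the median was -0.13 against 0.0084 over all genes, with 6 of 26 above 0, and at any fold 2 were higher and 12 lower at an unadjusted p under 0.05, where 23% of all genes passed it in either direction. None of the 12 reached the fold threshold, and they included the Arp subunit gene *Arpc5* (-0.28 ± 0.053, limma adjusted p = 0.0144), *Wasf1*, which activates that complex (-0.29 ± 0.055, 0.0161), and the profilin gene *Pfn2* (-0.21 ± 0.044, 0.0223), 3 examples chosen after their values were seen. The 2 called (7.69% of the list, against 6.14% of all genes) were *Arpc1b*, a subunit of the Arp complex (0.57 ± 0.079, limma adjusted p = 0.00502), and *Gsn*, the actin-severing gelsolin (0.47 ± 0.12, 0.0434). Both were also called higher in cortices, at 0.61 and 0.98 with limma adjusted p of 0.11 and 0.0952. In the same comparisons microglial markers were higher, 5 of 10 called in hippocampi (summed FPKM 169 to 180 in controls and 191 to 230.2 in cKO libraries) and 6 of 10 in cortices (22.9 to 26.9 and 36.3 to 46.8), and no marker of that list was at 0 in every library. In cortices markers of meninges (6 of 6 called, median 2.11), blood (3 of 5) and endothelium (2 of 8) were also called higher, and 0 of them lower. In Kdm2b hippocampi progenitor markers were higher (6 of 10 called, summed FPKM 1122 to 1201 and 1183 to 1302) and neuronal markers had a median of -0.24 (1 of 10 called, lower, summed FPKM 2321 to 2416 and 1850 to 2119). At an unadjusted p under 0.05 and any fold, 7 of 10 neuronal markers were lower and 1 higher in limma. By the same measure 9 of 10 progenitor markers were higher and 1 lower. The part of these cell types in the actin genes was not tested. In neurospheres 3 were called higher and 2 lower of 25, or 20% where 24.6% of all genes were called. They were led by the thymosin entry shared by *Tmsb15b1*, *Tmsb15b2* and *Tmsb15l*, which fell by 1.73 ± 0.17 (limma adjusted p = 0.00263). Next were *Arpc1b* (0.72 ± 0.14, 0.0177), the transcription factor *Srf* (-0.63 ± 0.097, 0.00947) and *Gsn* (0.51 ± 0.11, 0.0263). *Tmsb10* itself was not called there.

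Of PP1 subunits, regulators and genes of myosin light chain control, limma called 4 of 27 (14.8%) higher in Rnf2 hippocampi at unadjusted p. Of all genes tested there, limma called 2.86% higher. Limma-voom on the recovered reads called 2 of the 27. The median was 0.093 against -0.00024 over all genes. The 4 called by limma were the PP1 inhibitor *Ppp1r11* (0.47), *Myl6* (0.46), *Myl9* (0.44) and *Ppp1r1b* (0.41), none with an adjusted p under 0.05. In Kdm2b hippocampi 1 of 27 was called (3.70%, against 6.14% of all genes). This was *Ppp1r14a*, of the same inhibitor family as *Ppp1r14b* (0.71 ± 0.22, limma adjusted p = 0.0757). It was called again in cortices (1.03 ± 0.28, adjusted p = 0.249). There 5 of 26 were called higher (19.2%, against 4.73% of all genes), none with an adjusted p under 0.05. After *Ppp1r14a* in size came *Ppp1r1b* (0.56), *Myl9* (0.52) and *Myl12a* (0.45). In the same cortices markers of meninges (6 of 6), microglia (6 of 10), blood (3 of 5) and endothelium (2 of 8) were called higher and 0 of them lower. Their part in this list was not tested. In neurospheres 2 were called higher and 2 lower of 27, or 14.8% where 24.6% of all genes were called. These were *Ppp1r1b* at 1.16 ± 0.14 (adjusted p = 0.00496), *Myl12b* at 0.48, *Ppp1r15a* at -0.45 and *Ppp1r1a* at -0.40. Of the PDGF ligands and receptors, 0 of 6 were called in either hippocampal table by limma (0 at an unadjusted p under 0.05 in both, 0 by limma-voom in the Rnf2 table). Over all genes tested, limma called 6.14% in the Kdm2b and 4.71% in the Rnf2 hippocampal table. In neurospheres limma called 1 of 3 lower (33.3%, against 24.6% of all genes called), and in cortices 1 of 5 higher (20%, against 7.01%). All 5 cortical fold changes were above 0 (median 0.29), 4 had an unadjusted p under 0.05 in limma, and limma-voom called 3. Both limma calls were *Pdgfra*, the PDGFA receptor of oligodendrocyte precursors. It fell by 1.88 ± 0.11 in cKO neurospheres (adjusted p = 0.00115) and was higher in cKO cortices (0.80 ± 0.10, adjusted p = 0.0771). *Pdap1* was called in neither. The part of cell types in the cortical values was not tested.

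Since Kdm2b binds through a domain that reads unmethylated CG, the promoters of the members were read for the letters CG, which are the same on both strands. Promoters (RefSeq, GRCm38.p6, 250 bases before to 50 after a start) were found for all 6 members. The *Sumo2* promoter held 42 CG, and 3.03% of 32851 promoters had as many or more, *Pdap1* held 31 (10.6%), *Ppp1r14b* 23 (21.5%) and *Tmsb4x* 20 (26.5%), where the median promoter held 7. *Sumo3* and *Tmsb10* each have 3 annotated starts, with 2 to 36 and 15 to 31 CG. The upstream windows of *Sumo2* and of both thymosins are printed as far as they lie before every GENCODE exon, because *Sumo2* and *Tmsb10* stood apart from *Tmsb4x* in the Rnf2 table. They cover 204 bases at chr11:115536277-115536480, 250 bases at chr6:72958749-72958998 and 153 bases at chrX:167209316-167209468, all on the minus strand and with CG in capitals.
Sumo2 promoter: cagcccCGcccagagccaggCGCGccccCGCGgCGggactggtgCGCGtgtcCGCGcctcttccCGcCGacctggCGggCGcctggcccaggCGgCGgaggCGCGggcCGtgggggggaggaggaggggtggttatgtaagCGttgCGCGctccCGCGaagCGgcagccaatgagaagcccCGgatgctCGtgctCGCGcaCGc
Tmsb10 promoter: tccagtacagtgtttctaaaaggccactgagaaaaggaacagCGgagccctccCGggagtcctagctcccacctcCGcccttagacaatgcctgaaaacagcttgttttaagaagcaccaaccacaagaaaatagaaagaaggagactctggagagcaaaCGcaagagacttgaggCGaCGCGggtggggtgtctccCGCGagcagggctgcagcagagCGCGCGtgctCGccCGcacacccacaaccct
Tmsb4x promoter: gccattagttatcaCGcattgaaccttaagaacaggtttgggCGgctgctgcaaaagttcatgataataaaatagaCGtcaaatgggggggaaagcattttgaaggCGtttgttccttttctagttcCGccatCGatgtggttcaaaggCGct
These stretches hold 30, 14 and 7 CG, but they differ in length, so the counts are not set against each other. The full windows of 300 bases at the same starts hold 42, 15 and 20 CG. The *Tmsb10* start printed is the one with the fewest CG, and its other starts hold 31 and 30. CG content is a description of the letters and says nothing of methylation or binding in these samples.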

How the data were processed

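RNA-seq expression was available for 18 libraries in 4 tables. The authors deposited FPKM values per gene; for Kdm2b hippocampi and neurospheres reads had been trimmed with cutadapt, aligned to mm10 with STAR and quantified with Cufflinks 2.2.1, and the pipeline behind the cortical and Rnf2 tables, which add gene lengths, is not given in the sources used here. Their differential calls rested on DESeq2, and those columns were not used. No per-sample column was left unmapped (0).

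Groups came from the labels. Each table was fitted by itself with limma 3.58.1 (R 4.3.3, empirical Bayes with trend) on log2(FPKM + 1) for genes with a mean of 0.5 FPKM or more, so fold changes of low genes are understated. A gene was called at a log2 fold change beyond 0.4 either way and an unadjusted p under 0.05, with the Benjamini-Hochberg adjusted p over all genes beside it. Errors of fold changes are SE. In the cortical and Rnf2 tables FPKM times gene length gave whole multiples of 1 read (tolerance 0.05), which gave reads for limma-voom, copies and depth. Copies were found with BLAST 2.17.0 among GENCODE vM21 transcripts, and paralog ratios used exact two-sided permutation tests (SciPy 1.17.1). Named genes are the members, the neighbors of the leading members in the Rnf2 ranking, the most alike genes of each member, and at most 4 called genes of each list by size, of which some are not reported here. Members, lists and tests were chosen with earlier results of these data known, and the copy search and the single-library comparisons after the data were seen. Copies and the neighbors among abundant coding genes are named beyond that rule, after their values were seen. Alternatives were a pseudocount of 0.1, a minimum of 1 FPKM or none, no fold threshold, adjusted p, the same FPKM total, median-ratio scaling, no trend, summed entries, protein-coding genes alone, limma-voom, pseudogenes added by name, copies added, a replicate block and each library left out. Scripts were tested on simulated data.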

Additional observations from a re-analysis of the deposited data

How the results depend on the processing

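Depth is unknown for 2 of the 4 tables, and 2 against 2 libraries leave 1 library to decide a value. Without a fold threshold 3090, 4669, 2013 and 1121 genes were called in Kdm2b hippocampi, neurospheres, cortices and Rnf2 hippocampi (826, 3012, 1100 and 742 with it), and with an adjusted p 67 in cortices and 0 in Rnf2 hippocampi. Leaving out 1 library gave 797 to 933, 2568 to 3388, 1015 to 1667 and 468 to 1580. Members called in neurospheres were 1 with the same FPKM total and 2 without a fold threshold, and 0 to 4 over left-out libraries, as in cortices (0 to 4). In Kdm2b hippocampi the same FPKM total turned *Sumo2* to 0.022 and *Sumo3* to 0.016, and left-out libraries gave -0.039 to 0.043, -0.038 to 0.053 and, for *Tmsb10*, -0.034 to 0.10, with the log2 ratio of *Sumo2* to *Sumo3* differing by -0.013 to 0.029. In neurospheres they gave -0.13 to 0.45 for *Pdap1* and -0.0056 to 0.091 for that ratio. In cortices they gave -0.026 to 1.87 for *Sumo2*, -0.030 to 0.13 for *Sumo3*, 0.027 to 0.62 for *Tmsb10*, -0.16 to 0.48 for *Ppp1r14b*, -0.078 to 0.53 for *Pdap1*, -0.060 to 1.84 for the SUMO ratio and -0.11 to 0.56 for the thymosin ratio. In Rnf2 hippocampi they gave -0.18 to 0.068 for *Sumo3* and -0.40 to 0.038 for *Tmsb4x*. There *Sumo2* was 0.89 with its copies added, and *Pdap1* was 0.91 with a pseudocount of 0.1, in limma-voom and on recovered reads scaled to depth. The cause was not tested, save that fewer libraries, fewer genes or added reads are part of how these alternatives are built. Replicate numbers were not taken to pair libraries (r of same-numbered libraries 0.049, -0.10 and -0.086 in Kdm2b hippocampi, -0.28 in neurospheres, -0.053 in cortices and 0.16 in Rnf2 hippocampi, where with 2 against 2 other pairs mirror these values), since the labels name no shared litter and none of the 3 in Kdm2b hippocampi passed 0.1. With a replicate block 831, 2993, 1197 and 989 genes were called, and 0 members in each Kdm2b table.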
